A study of Mus musculus with 6 samples.

Results

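Collagens are the trimeric proteins that carry most of the body's extracellular matrix, and each chain of a trimer is the product of its own gene. The collagen chain genes were taken as the protein-coding genes whose symbol is Col, a number, the letter a and a number, which gave 44 of the 54532 genes in the deposited table, of which 22046 are protein-coding. They were sorted into 11 fibrillar, 6 basement membrane, 6 microfibrillar and 21 other collagens. Messenger RNA was counted by RNA sequencing of total RNA from the retinas of 17-day-old (postnatal day 17) C57BL/6J wild-type mice. The 3 normal libraries and the 3 OIR libraries share strain, genotype, age and tissue, and differ in OIR, oxygen-induced retinopathy, a model of retinopathy of prematurity. High oxygen given to the pups stops and prunes the young retinal vessels, and in room air the poorly perfused retina then turns hypoxic and sprouts vessel tufts. The sources used here do not give the oxygen schedule, nor whether each library is a separate animal, so the p-values describe the spread between libraries, which may in part be technical. The series asks which transcripts change with vessel growth driven by hypoxia.

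The chains of a trimer wind into a triple helix in the endoplasmic reticulum, with the help of prolyl and lysyl hydroxylases and the chaperone HSP47. Fibrillar collagens are then trimmed outside the cell and packed into cross-linked fibrils, type IV collagens form the sheet-like network of basement membranes, and type VI collagens form beaded microfilaments beside them. In the retina, basement membranes line every vessel, the inner limiting membrane and the pigment epithelium, while the vitreous gel next to it is built on fibrils of types II, V, IX and XI.

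Depth was 15818168 to 17163513 counts per library, and the defining markers of retina were abundant: 6 rod photoreceptor genes summed to between 39788 and 42839 CPM (counts per 1e6 counts, scaled by TMM) in the normal libraries and between 32530.2 and 36738 CPM in the OIR libraries. OIR 3 held far more lens crystallin RNA than the other libraries, and its values are given beside the results that rest on it. By Xist and Y-linked genes, Normal 1, Normal 3 and OIR 2 came from males and the others from females.

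Collagen mRNA was higher in OIR retina for 17 of the 42 chain genes tested, lower for 3, and 22 passed neither way in edgeR (quasi-likelihood test, adjusted p under 0.05). Over all 17108 genes tested, 11.1% were higher and 8.73% lower, or 19.8% in either direction. The median log2 change was 0.40 for the collagen genes and 0.01 for all genes. Of the collagens, 7 were at least 4-fold higher (Col4a1, Col4a2, Col1a1, Col5a2, Col6a3, Col15a1 and Col10a1), against 1.5% of all genes tested that were at least 4-fold higher and passed. Col10a1 and Col14a1, 2 of the 17 higher members, had enough counts for the test only in the OIR libraries, so their calls are no support for the count. The OIR libraries all lay above the normal ones for 20 members and all below for 3, against 18.7% and 18.1% of all genes tested (36.8% in either direction), and for 21 members the groups overlapped. The 21 include Col6a5 and Col6a6, which were not tested. Among the 20 are Col10a1, Col14a1 and Col13a1, which had enough counts for the test only in the OIR libraries and so are no support for this count either. In bulk tissue, more cells of a type and more RNA per cell cannot be told apart.

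**Figure D1:**
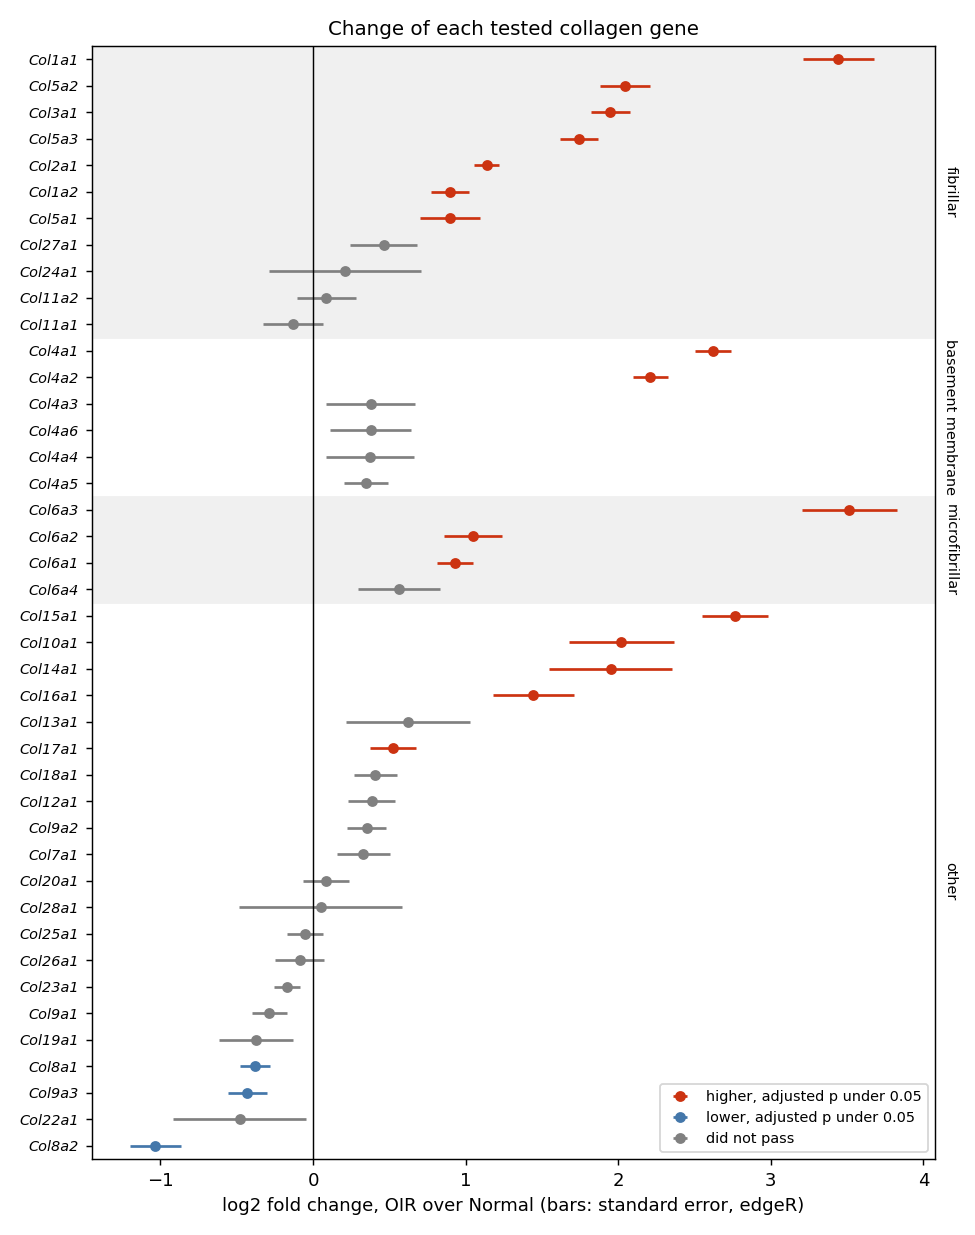
Log2 fold change of each of the 42 tested collagen genes in OIR over normal retina, grouped by class, with bars for the standard error from edgeR (3 libraries per group). The 17 genes that passed upwards are red, the 3 that passed downwards blue and the 22 that did not pass grey, and the 3 lower genes are all in the class of other collagens.

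Markers of vessel cells moved in the same libraries, and their part in the collagen differences was not tested. Endothelial markers were higher in 12 of 14 cases, with a summed level of 521 to 603 CPM in the normal and 862 to 931 CPM in the OIR libraries. Kdr, the most abundant of them, was level (mean 245 to 246 CPM). Tek had a lower mean in OIR (14.6 to 11.3 CPM, log2 change −0.37). It did not pass (edgeR adjusted p of 0.0977) but was lower at an unadjusted p under 0.05. Mural cell markers, those of pericytes and smooth muscle around vessels, were higher in 9 of 10 cases, at 271 to 315 CPM against 754 to 871 CPM. Of 10 markers of fibroblasts and stroma, the cells that make most fibrillar collagen elsewhere in the body, 6 had enough counts to be tested and 3 were higher, with sums of 38.8 to 44.6 CPM and 64.1 to 84.1 CPM. None of the 10 was at 0 in all libraries. Dcn, Lum, Dpt, Pi16, Mfap5 and Dpep1 each averaged under 1.1 CPM in both groups. The 3 higher genes were Pdgfra (mean 25.9 to 45.6 CPM), which is also in the astrocyte list, Gsn (7.30 to 12.8 CPM) and Slit3 (1.13 to 2.96 CPM). Ogn did not pass (5.03 to 7.09 CPM). Astrocyte markers were higher in 3 of 6 cases and lower in 1 (74.1 to 85.01 against 307 to 389 CPM). Most of the rise in that sum was Gfap (mean 22.1 to 261 CPM). Aldh1l1 (12.4 to 34.0 CPM) and Pdgfra were also higher, Slc39a12 was lower (5.09 to 2.47 CPM), and Pax2 and S100b did not pass. Microglia and macrophage markers were higher in 4 of 8 (42.4 to 54.4 against 79.1 to 113 CPM), and Müller glia markers were lower in 5 of 8 (3966 to 4720 against 2922 to 3555 CPM).

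Of the 6 type IV chains, the pair that makes the common vascular basement membrane was higher, and the other 4 did not pass. Col4a1 (ENSMUSG00000031502, chromosome 8, 11198423 to 11312826, minus strand, mm10) had 119, 132 and 99.3 CPM in Normal 1 to 3 and 635, 751 and 772 CPM in OIR 1 to 3. The lowest OIR library was thus well above the highest normal one. The 6.16-fold difference had a log2 change of 2.62 and a standard error of 0.115 (edgeR adjusted p of 4.38e-07). Col4a2, its partner chain on the opposite strand, had 97.5, 110.5 and 85.6 CPM in the normal and 395, 454 and 509.8 CPM in the OIR libraries. That is a 4.63-fold difference (log2 change 2.21, standard error 0.113, edgeR adjusted p of 9.69e-07), again with no overlap between groups. No type IV chain was lower, also at an unadjusted p under 0.05, and DESeq2 and limma-voom likewise gave 0.

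Col4a1 and Col4a2 are read in opposite directions from one shared stretch of chromosome 8, and their annotated first exons overlap. The overlap is shown because the 2 collagen genes with the highest CPM in OIR retina both start in it. It spans chr8:11312805-11312826 (GRCm38.p6, plus strand, 22 bases), from the RefSeq promoter table, and the capitals mark a GC box, GGGCGG:

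Col4a1 and Col4a2 first exon overlap: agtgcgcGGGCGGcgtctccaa

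The genes for the other 4 chains are paired in the same head-to-head way. Col4a4 and Col4a3, whose chains join with that of Col4a5 in a network best known from kidney glomeruli and other mature basement membranes, lie 71 bases apart on chromosome 1, and Col4a6 and Col4a5 lie 1308 bases apart on the X chromosome. In the 250 bases before the start, Col4a4 had ACGTG, a form of the core of the hypoxia response element and the only form searched for. Col4a1 had CCAAT there, Col4a2 had CCAAT and a GC box, and Col4a3 was not in the promoter table. These stretches are shared with the partner genes. The 250 bases before Col4a1 lie within Col4a2, those before Col4a2 lie within Col4a1, and the ACGTG match of Col4a4 reaches into Col4a3. The 71 bases between the starts of Col4a4 and Col4a3 (chr1:82586850-82586920, GRCm38.p6, minus strand) are shown for comparison with the pair on chromosome 8. Within these 71 bases none of the motifs searched for was found:

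Col4a4 to Col4a3 gap: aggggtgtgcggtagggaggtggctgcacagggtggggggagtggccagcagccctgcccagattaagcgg

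The 4 other type IV chains were lower in level than Col4a1 and Col4a2, and the groups overlapped for each. Col4a3 had 12.6, 15.4 and 12.4 CPM in the normal and 11.9, 12.2 and 28.4 CPM in the OIR libraries. Col4a4 had 15.6, 14.1 and 14.2 CPM in the normal and 12.1, 13.95 and 30.9 CPM in the OIR libraries. OIR 3 alone was high for both. In that library Col4a3 was 2.35 times and Col4a4 2.37 times the mean of the other 2 OIR libraries, and without it their log2 changes went from 0.38 and 0.37 (edgeR adjusted p of 0.413 and 0.415) to −0.17 and −0.18. Col4a6 followed with 9.99, 8.56 and 7.13 CPM in the normal and 10.6, 6.77 and 16.0 CPM in the OIR libraries, and OIR 3 was 1.85 times the mean of the other 2. Its log2 change of 0.38 (edgeR adjusted p of 0.367) was 0.01 without OIR 3. Summed lens markers were 5980.1 CPM in OIR 3, against 75.5 to 364 CPM in the other OIR libraries and 7.72 to 407 CPM in the normal ones. In edgeR 0 of 11 lens markers passed, as in DESeq2 and limma-voom, with 7 higher at an unadjusted p under 0.05, and none of the 11 was at 0 in all libraries. The part of lens RNA in the OIR 3 values of these chains was not tested.

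Col4a5, on the X chromosome, had 29.2, 23.9 and 23.6 CPM in the normal and 32.2, 26.0 and 39.2 CPM in the OIR libraries. Its log2 change of 0.35 did not pass (edgeR adjusted p of 0.128), but passed with no filter on low counts (log2 change 0.34, adjusted p of 0.0336). That edgeR fit gave far smaller p-values at nearly the same log2 changes, with an adjusted p of 9.69e-59 for Col4a1 against 4.38e-07 with the filter. A pass in it alone is thus no support for a call. Col4a5 also passed when OIR 2 was left out (log2 change 0.48, adjusted p of 0.0436). Without OIR 3, the highest library, the log2 change was 0.18 (adjusted p of 0.459). Between the male libraries the log2 difference was −0.01 and between the female ones 0.58.

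**Figure D2:**
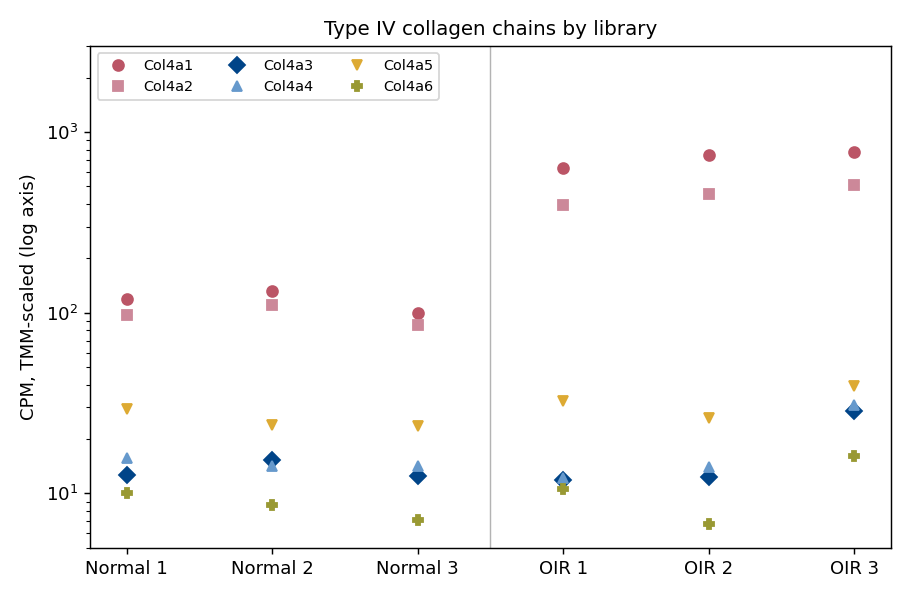
CPM of the 6 type IV collagen chains in each library, on a log axis, with one symbol per gene and normal libraries left of the line. Col4a1 and Col4a2 lie between 85.6 and 132 CPM in the normal and between 395 and 772 CPM in the OIR libraries, while Col4a3, Col4a4 and Col4a6 are high in OIR 3 alone.

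Of the 11 fibrillar collagens, 7 were higher in OIR retina, none was lower (0 at an unadjusted p under 0.05, and 0 in DESeq2 and limma-voom), and the median log2 change was 0.90. They include both chains of type I collagen, the single chains of types II and III, and all 3 chains of type V. Type I is the main collagen of skin, bone and scar. Its Col1a1 chain (chromosome 11, 94936224 to 94953042, plus strand, mm10) had 1.74, 2.13 and 2.25 CPM in the normal and 29.8, 18.8 and 18.0 CPM in the OIR libraries. OIR 1 was the highest library, and every OIR library was several times above every normal one. Col1a1 was 10.9-fold higher (log2 change 3.44, standard error 0.233, edgeR adjusted p of 5.42e-06). Its partner Col1a2 differed less, at 15.1, 12.02 and 14.4 CPM in the normal and 28, 23.4 and 25.9 CPM in the OIR libraries, or 1.86-fold (log2 change 0.90, standard error 0.125, adjusted p of 0.00066).

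Type III collagen is the flexible fibril protein of vessel walls, made of Col3a1 chains alone. Col3a1 had 8.85, 7.53 and 6.93 CPM in the normal and 32.2, 28.1 and 29.7 CPM in the OIR libraries, which is 3.86-fold higher, with an edgeR adjusted p of 4.27e-06. Its neighbour Col5a2, which lies 24614 bases away on chromosome 1 and on the other strand, had 4.79, 4.19 and 3.60 CPM in the normal and 20.2, 16.4 and 15.4 CPM in the OIR libraries, or 4.12-fold higher (adjusted p of 1.6e-05). The groups lay apart for both genes, and the ratio of Col3a1 to Col5a2 counts per kb was 1.82 ± 0.0646 in normal and 1.71 ± 0.163 in OIR libraries (SD, n = 3, exact permutation p = 0.3). The 250 bases before the Col3a1 start (chr1:45311288-45311537, GRCm38.p6, plus strand) are shown as the promoter of the fibrillar gene with the smallest adjusted p. Capitals mark the letters TATAAA, searched for as a TATA box and the one match among the motifs searched for. The match lies near the middle of the 250 bases, and whether it serves as the TATA box of Col3a1 was not tested:

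Col3a1 promoter: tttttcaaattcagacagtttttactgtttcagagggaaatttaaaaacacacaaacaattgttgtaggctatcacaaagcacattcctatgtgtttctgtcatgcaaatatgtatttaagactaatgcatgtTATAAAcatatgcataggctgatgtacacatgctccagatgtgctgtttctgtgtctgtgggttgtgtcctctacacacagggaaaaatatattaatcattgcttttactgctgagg

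Type V chains start and thin the fibrils of type I. Besides Col5a2, Col5a3 had 12.2, 14.3 and 10.7 CPM in the normal and 46.4, 39.8 and 38.7 CPM in the OIR libraries, or 3.35-fold higher (log2 change 1.74, edgeR adjusted p of 8.28e-06). Col5a1 had 15.0, 8.26 and 10.3 CPM in the normal and 23.6, 20.5 and 18.2 CPM in the OIR libraries. The normal libraries were spread more widely for Col5a1 than for its partners, and its 1.86-fold difference (log2 change 0.89, adjusted p of 0.00906) no longer passed without Normal 3 (0.84, adjusted p of 0.0583).

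Col2a1, the chain of the fibrils of cartilage and vitreous, was the most abundant fibrillar collagen. It had 96.1, 97.9 and 84.3 CPM in the normal and 202, 192 and 219.5 CPM in the OIR libraries, a narrow spread in both groups. The difference was 2.20-fold (log2 change 1.14, standard error 0.0812, edgeR adjusted p of 7.89e-06). Of the 8 cartilage markers, Acan, Matn1, Matn3, Comp and Snorc averaged under 0.5 CPM in both groups, and of the 3 tested 1 was higher, the transcription factor gene Sox9, which Müller glia also express (27.8 ± 2.30 to 52.9 ± 4.66 CPM, SD, n = 3). Cnmd (mean 10.2 to 7.98 CPM) and Hapln1 (4.78 to 3.90 CPM) had lower means in OIR and did not pass. The marker sum was 39.3 to 47.8 CPM in the normal and 60.8 to 70.2 CPM in the OIR libraries, a rise that was that of Sox9. The part of these markers in the Col2a1 difference was not tested. Col11a1 and Col11a2, the chains of type XI collagen that share fibrils with type II, had log2 changes of −0.13 and 0.09 and did not pass. Col27a1 (0.46) and Col24a1 (0.21), of the minor fibrillar types, did not pass either. These 4 genes were between 0.299 and 10.8 CPM in the 6 libraries.

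**Figure D3:**
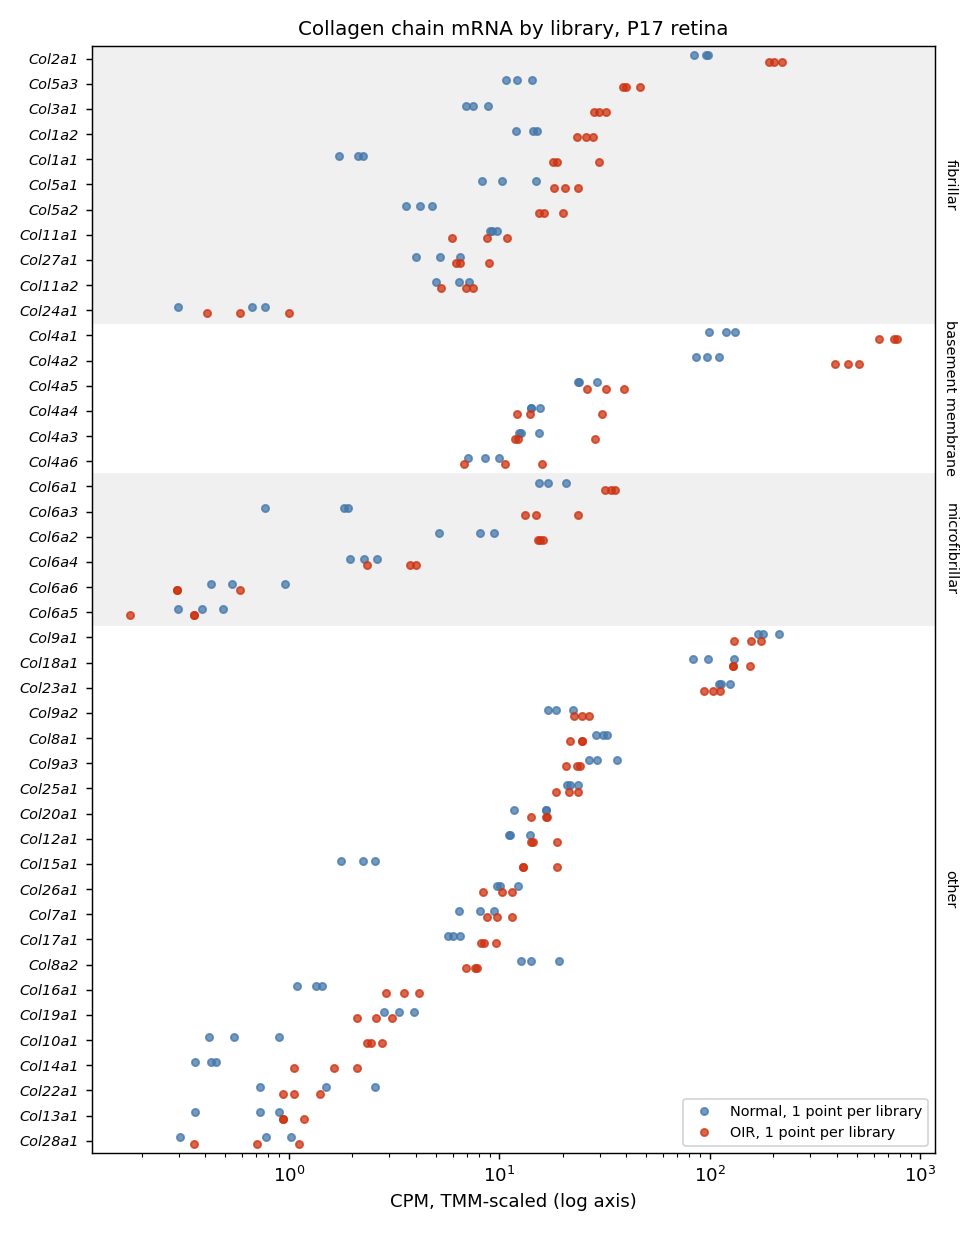
CPM of all 44 collagen genes in each of the 6 libraries, on a log axis, by class and in order of the OIR mean within a class. Col4a1, Col4a2, Col2a1, Col1a1, Col6a3 and Col15a1 are among the genes with OIR points (red) clear of the normal points (blue), whereas Col9a1, Col23a1 and Col25a1 overlap.

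The microfibrillar class held the 6 type VI chains. Col6a1, Col6a2 and Col6a3, which join into the usual type VI molecule, were all higher in OIR retina, and none of the class was lower (0 at an unadjusted p under 0.05, and 0 in DESeq2 and limma-voom). Col6a3 (chromosome 1, 90765923 to 90843971, minus strand, mm10), the longest chain, had 1.91, 1.82 and 0.770 CPM in the normal and 23.8, 13.3 and 15.0 CPM in the OIR libraries. Its 11.4-fold difference (log2 change 3.51, standard error 0.312, edgeR adjusted p of 3.22e-05) was close to that of Col1a1, and which of the 2 was larger turned with the libraries used: without Normal 3 the log2 changes were 3.21 for Col6a3 and 3.52 for Col1a1. Col6a1 had 15.5, 20.6 and 17.01 CPM in the normal and 35.7, 33.8 and 31.8 CPM in the OIR libraries, or 1.90-fold higher (adjusted p of 0.000357). Col6a2 had 8.08, 5.16 and 9.44 CPM in the normal and 15.6, 16.1 and 15.2 CPM in the OIR libraries, or 2.07-fold higher (adjusted p of 0.00312). The chains that can replace Col6a3 were low. Col6a4 did not pass (log2 change 0.56, adjusted p of 0.18), and Col6a5 and Col6a6 were not tested, with 19 and 31 counts in the 3 normal libraries and 15 and 20 in the 3 OIR libraries.

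The promoter of Col6a3 is shown because this gene and Col1a1 had the highest fold differences among the collagens tested. In the 250 bases before its start (chr1:90843972-90844221, GRCm38.p6, minus strand) none of the searched motifs was found, so no base is in capitals:

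Col6a3 promoter: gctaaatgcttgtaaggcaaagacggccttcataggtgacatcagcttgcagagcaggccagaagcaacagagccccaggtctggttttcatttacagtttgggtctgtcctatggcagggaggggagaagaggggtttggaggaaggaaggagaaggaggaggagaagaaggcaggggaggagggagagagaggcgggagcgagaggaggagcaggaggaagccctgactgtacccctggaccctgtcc

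The 21 other collagens, which include the fibril-associated, network-forming, transmembrane and endostatin-type chains, had 5 higher and 3 lower members and a median log2 change of 0.08, near that of all genes. Col15a1 and Col18a1 are the endostatin-type collagens of basement membrane zones. Col15a1 (chromosome 4, 47208161 to 47313167, plus strand, mm10) had 2.57, 1.76 and 2.25 CPM in the normal and 18.9, 12.9 and 13.02 CPM in the OIR libraries. It was 6.80-fold higher, with a log2 change of 2.76, a standard error of 0.214 and an edgeR adjusted p of 1.23e-05. Col18a1, the source of endostatin, was far more abundant, at 130.2, 83.7 and 97.8 CPM in the normal and 156, 129 and 129 CPM in the OIR libraries. Normal 1 overlapped the OIR libraries, and the log2 change of 0.41 did not pass (adjusted p of 0.0704). It passed with library totals alone, with no filter, in DESeq2 and without Normal 1.

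The other 4 higher members of this class were low in level. Col10a1, the network collagen of growth cartilage, had 0.419, 0.547 and 0.899 CPM in the normal and 2.77, 2.35 and 2.46 CPM in the OIR libraries (4.06-fold, edgeR adjusted p of 0.00216). Col14a1, a fibril-associated chain, had 0.359, 0.425 and 0.449 CPM in the normal and 2.12, 1.65 and 1.06 CPM in the OIR libraries (3.86-fold, adjusted p of 0.0067). Both genes, with Col13a1, reached the minimum count for testing only through the OIR libraries. Col16a1, another fibril-associated chain, had 1.44, 1.09 and 1.35 CPM in the normal and 4.18, 2.88 and 3.52 CPM in the OIR libraries (2.72-fold, adjusted p of 0.00354). Col17a1, a transmembrane collagen of epithelial hemidesmosomes, differed least, at 6.04, 6.50 and 5.71 CPM against 9.65, 8.48 and 8.15 CPM. Its 1.44-fold difference (adjusted p of 0.0309) no longer passed without Normal 1, Normal 3, OIR 1, OIR 2 or OIR 3, with sex as a covariate or at an adjusted p under 0.01.

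The 3 lower members were the type VIII chains, which form the hexagonal lattice of the corneal Descemet's membrane and also occur in vessel walls, and 1 type IX chain. Col8a2 (chromosome 4, 126286793 to 126314330, plus strand, mm10) had 19.1, 14.1 and 12.7 CPM in the normal and 6.94, 7.65 and 7.86 CPM in the OIR libraries, with no overlap. It was 2.05-fold lower (log2 change −1.03, standard error 0.167, edgeR adjusted p of 0.00165), and was the one lower member that also passed at 0.01. Col8a1 had 31.2, 32.6 and 29.0 CPM in the normal and 21.7, 24.8 and 24.8 CPM in the OIR libraries. Its log2 change of −0.38 (adjusted p of 0.0193) no longer passed without OIR 1 (adjusted p of 0.105). Col9a3 had 36.4, 29.0 and 26.7 CPM in the normal and 24.3, 20.7 and 23.3 CPM in the OIR libraries. Its log2 change of −0.43 (adjusted p of 0.0358) no longer passed without Normal 1, OIR 1, OIR 2 or OIR 3, with library totals alone or with sex as a covariate.

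Over the same libraries, 6 of 11 markers of pigment and ciliary epithelium were lower, with sums of 274 to 494.5 CPM in the normal and 179.8 to 217 CPM in the OIR libraries, and none was at 0 in all libraries. Of 7 markers of corneal and conjunctival epithelium 1 was tested and lower, Krt14 and Krt4 were at 0 in every normal library, and the sums were 1.46 to 2.03 CPM in the normal and 0.883 to 1.41 CPM in the OIR libraries. The part of these cells in the lower collagens was not tested. The 249 bases before the Col8a2 start (chr4:126286544-126286792, GRCm38.p6, plus strand) are shown as the promoter of the lower member with the smallest adjusted p. Capitals mark GC boxes on either strand, GGGCGG or CCGCCC:

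Col8a2 promoter: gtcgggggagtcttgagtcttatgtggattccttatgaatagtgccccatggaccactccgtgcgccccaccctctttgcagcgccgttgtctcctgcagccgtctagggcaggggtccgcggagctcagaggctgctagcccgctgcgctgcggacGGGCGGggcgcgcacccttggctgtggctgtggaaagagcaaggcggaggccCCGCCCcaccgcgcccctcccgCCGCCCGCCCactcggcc

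The 13 other members of this class did not pass, among them some of the most abundant collagens of the retina. Col9a1, a chain of the type IX collagen that coats vitreous and cartilage fibrils, had the highest level in the class, with 214, 170.3 and 179 CPM in the normal and 175, 130.4 and 157 CPM in the OIR libraries. OIR 1 overlapped the normal libraries, and the log2 change of −0.29 did not pass (edgeR adjusted p of 0.104), though it passed in DESeq2 and with no filter. The third chain, Col9a2, had a log2 change of 0.35 (adjusted p of 0.0761) with groups that did not overlap, at 17.01 to 22.4 CPM in the normal and 22.5 to 26.7 CPM in the OIR libraries, and passed without Normal 1. Col12a1, a fibril-associated chain (0.39), and Col13a1, a transmembrane chain (0.62), also had groups that did not overlap and did not pass. Col23a1, a transmembrane collagen, had 110.2 to 125 CPM in the normal and 94.2 to 111 CPM in the OIR libraries (log2 change −0.17, adjusted p of 0.184). Col7a1, the anchoring fibril collagen of skin (0.33), and Col19a1 (−0.37) did not pass. Neither did Col20a1 (0.08), Col22a1 (−0.48), Col25a1 (−0.05), Col26a1 (−0.09) or Col28a1 (0.05).

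All 20 members that passed had groups that did not overlap. The choice by adjusted p in the same libraries makes this likely, so it adds no support to the calls. Of the 20, 16 passed in each of the 14 alternative fits run at a threshold of 0.05, and none changed direction in any of them. The 4 that lost the call in at least one fit were Col5a1, Col17a1, Col8a1 and Col9a3.

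As a whole, collagen mRNA made up 1143, 1056 and 984 CPM in the normal libraries and 2221, 2237 and 2416 CPM in the OIR libraries, a 2.16-fold difference (log2 difference 1.11). An exact two-sided permutation test gave p = 0.1, the smallest that 3 against 3 libraries allow, or 0.139 adjusted over the 32 library quantities compared. So none of the summed levels, shares and ratios below could pass 0.05. Col4a1 and Col4a2 together were 215 ± 28.8 CPM in the normal and 1172 ± 129 CPM in the OIR libraries (SD, n = 3), and the 42 other genes 846 ± 69.8 and 1119 ± 80.0 CPM. The difference was thus 5.47-fold for the pair and 1.32-fold for the rest (exact permutation p = 0.1 for both).

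The make-up of collagen mRNA differed accordingly. Col4a1 and Col4a2 held 19.0%, 22.95% and 18.8% of collagen counts in Normal 1 to 3 and 46.4%, 53.8% and 53.0% in OIR 1 to 3, so no OIR library came near a normal one. Weighted per kb of gene length, their share was 18.4% ± 2.28 in normal and 49.9% ± 4.30 in OIR libraries (SD, n = 3). The 21 other collagens held 55.4% ± 2.82 of collagen counts in normal and 25.5% ± 2.81 in OIR libraries. Their summed level was 589 ± 58.7 and 583 ± 49.8 CPM (exact permutation p = 0.9). The fibrillar class was 166 ± 11.5 and 385 ± 20.6 CPM, or 2.33-fold, with shares of 15.6% ± 0.433 and 16.8% ± 1.25. The microfibrillar class was 30.1 ± 1.34 and 70.8 ± 7.85 CPM, or 2.34-fold, with shares of 2.85% ± 0.336 and 3.10% ± 0.457.

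**Figure D4:**
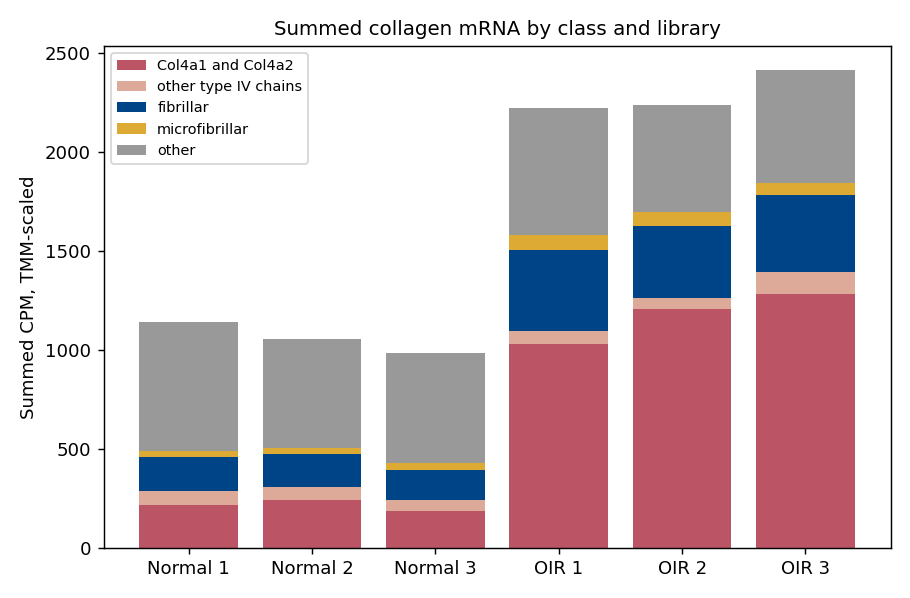
Summed CPM of the collagen genes in each library, as stacked bars by class, with Col4a1 and Col4a2 drawn apart from the other type IV chains. The bars reach 984 to 1143 CPM in the normal and 2221 to 2416 CPM in the OIR libraries, and the segment of Col4a1 and Col4a2 goes from 19 to 23% of the bar to 46 to 54% of it.

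Per kb of gene length, the order of the collagen transcripts also differed between the groups. In normal retina the highest level in RPKM (CPM per kb of the deposited gene length) was that of Col9a1, with 37.0 ± 4.52, followed by Col23a1 with 20.3 ± 1.33 (SD, n = 3). Col4a1 with 15.7 ± 2.21, Col18a1 with 14.8 ± 3.40 and Col4a2 with 14.8 ± 1.87 RPKM came next, and their ranges over the normal libraries overlapped. Within each normal library Col4a1 lay above Col4a2, and the order of these genes was not tested. In OIR retina Col4a1 had rank 1 with 96.4 ± 9.86 RPKM and Col4a2 rank 2 with 68.5 ± 8.65 RPKM. Col9a1 had rank 3 at 30.4 ± 4.39 RPKM and Col2a1 rank 4 at 22.1 ± 1.53 RPKM. Col1a1 went from rank 33 to rank 12 of the 44 genes, at 0.310 ± 0.0408 and 3.38 ± 1.005 RPKM.

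Chains that share a molecule did not all differ alike. The type IV molecule of Col4a1 and Col4a2 holds 2 chains of the first and 1 of the second. Their ratio in counts per kb was 1.08, 1.06 and 1.03 in normal and 1.42, 1.46 and 1.34 in OIR libraries (log2 difference 0.42, exact permutation p = 0.1). Type I collagen holds 2 Col1a1 chains and 1 Col1a2 chain, and the Col1a1 to Col1a2 ratio was 0.218, 0.335 and 0.295 in normal and 2.01, 1.52 and 1.31 in OIR libraries. This 5.72-fold difference in ratio is independent of gene length, but the level of the ratio is not. The deposited length of Col1a2 is 12426 bases while its longest coding transcript has 5348, and by transcript length the ratios were 0.134 ± 0.0283 and 0.769 ± 0.172 (SD, n = 3). The ratio of Col6a3 to Col6a1 was 0.0314 ± 0.0144 in normal and 0.187 ± 0.0515 in OIR libraries, and that of Col18a1 to Col15a1 was 42.7 ± 3.21 and 8.47 ± 0.871. Within types V and VIII, Col5a1 to Col5a2 went from 3.00 ± 0.686 to 1.36 ± 0.0513 and Col8a1 to Col8a2 from 1.19 ± 0.221 to 1.82 ± 0.0338. All of these ratios had groups that did not overlap (exact permutation p = 0.1).

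Other pairs had ratios that overlapped between the groups. They were Col4a3 to Col4a4 (0.982 ± 0.154 and 0.985 ± 0.0552, SD, n = 3, exact permutation p = 0.9) and Col4a5 to Col4a6 (3.57 ± 0.320 and 3.69 ± 0.830, exact permutation p = 0.9). Col6a1 to Col6a2 was 4.89 ± 2.35 and 4.10 ± 0.212 (exact permutation p = 1), with Normal 2 alone high at 7.60. Within type IX, Col9a1 to Col9a3 was 4.68 ± 0.363 and 5.12 ± 0.333 (exact permutation p = 0.2), whereas Col9a2 to Col9a1 went from 0.168 ± 0.0116 to 0.265 ± 0.0398 with no overlap.

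**Figure D5:**
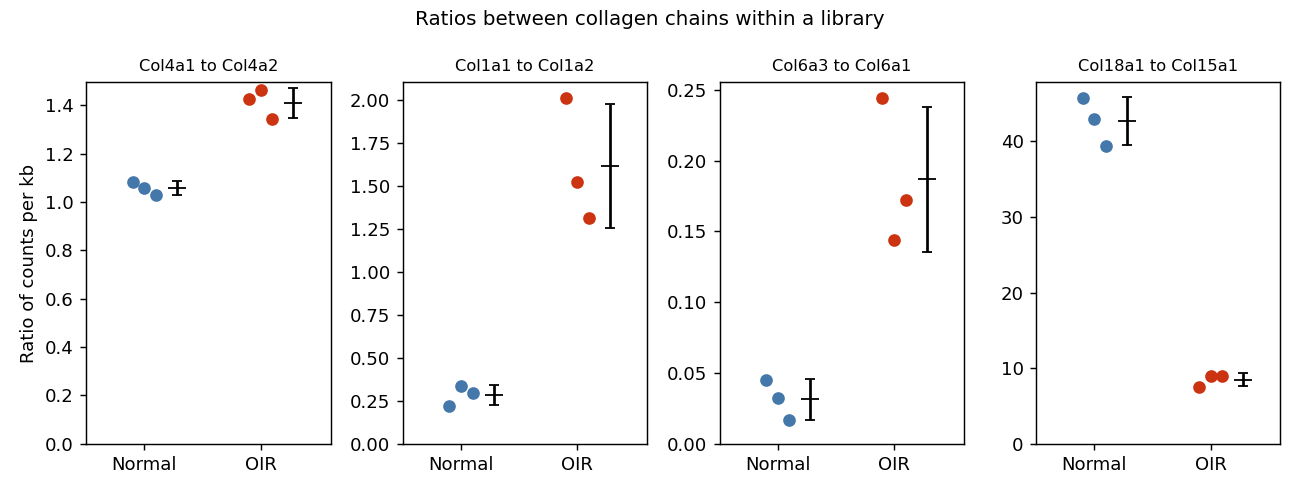
Ratios of counts per kb between chains within each library, with 1 point per library and bars for the mean and SD beside them (n = 3 per group). Col4a1 to Col4a2, Col1a1 to Col1a2 and Col6a3 to Col6a1 are higher in each OIR library than in each normal one, and Col18a1 to Col15a1 is lower.

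Collagen genes often lie next to each other, and 8 pairs of members lie within 100000 bases. In the 6 pairs with both genes tested, the neighbours had the same call: both were higher for Col4a1 and Col4a2, Col3a1 and Col5a2, and Col6a2 and Col6a1, and neither passed for Col4a4 and Col4a3, Col4a6 and Col4a5, and Col9a1 and Col19a1. Of the 42 tested members 17 were higher and 22 did not pass, and how often members far apart have the same call was not tested. The matches also depended on the fit: Col9a1 passed in DESeq2 and with no filter, and Col4a5 with no filter, while Col19a1 and Col4a6 did not. A pass with no filter alone is weak, because that fit gave far smaller p-values throughout the type IV pair Col4a1 and Col4a2 as well. Type I shows the other arrangement, with Col1a1 on chromosome 11 and its partner Col1a2 on chromosome 6, and both were higher as well.

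The promoter table held 38 start sites of 35 of the 44 members. The 9 others are Col1a1, Col2a1, Col5a2, Col4a3, Col9a3, Col12a1, Col14a1, Col22a1 and Col26a1. In the 250 bases before the start, on both strands, the GC box GGGCGG was found in 57.9% of member windows and 32.7% of all 32851 windows in the table. Member windows also had more G and C bases, a median of 59.0% against 52.4%, and whether that accounts for the GC boxes was not tested. The TATA box TATAAA was found in 13.2% of member windows against 12.4% of all, and CCAAT in 34.2% against 33.8%. ACGTG, a form of the core of the hypoxia response element, was found in 13.2% against 16.6%, and the AP-1 motif TGANTCA in 2.63% against 6.75%. No other form of that core was searched for, so windows without ACGTG may still hold it. Among the 14 windows of higher members 2 held ACGTG and 1 TGANTCA. These are matches of letters and not binding sites.

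The genes that fold, trim, cross-link, bind and receive collagens were read from 5 lists. Of 19 genes of collagen folding and secretion, 13 were higher and none lower (0 at an unadjusted p under 0.05, and 0 in DESeq2 and limma-voom), with a median log2 change of 0.53. Serpinh1, which encodes HSP47, went from 43.4 ± 8.46 to 111 ± 5.69 CPM (SD, n = 3), 2.56-fold higher (edgeR adjusted p of 3.38e-05). The lysyl hydroxylase gene Plod1 was 2.01-fold higher (32.2 ± 2.79 to 64.6 ± 6.39 CPM), and the collagen prolyl isomerase gene Fkbp10 2.30-fold (11.1 ± 2.24 to 25.6 ± 3.23 CPM).

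Of 13 tested genes that process and cross-link collagen outside the cell, 8 were higher and 1 lower, with a median log2 change of 0.88. The lysyl oxidase-like gene Loxl2, whose enzyme cross-links type IV collagen, was 5.23-fold higher (13.7 ± 1.05 to 71.5 ± 8.03 CPM, SD, n = 3, edgeR adjusted p of 4.25e-07). Bmp1, the protease that removes the C-propeptides of fibrillar procollagens, was 3.30-fold higher (24.8 ± 1.78 to 81.9 ± 10.7 CPM). Pxdn, the peroxidase that forms the sulfilimine bonds of type IV collagen, was 2.16-fold higher (40.5 ± 0.939 to 87.4 ± 5.20 CPM). The lower gene, Tll1, a relative of Bmp1, was named after its values were seen. Its log2 change of −0.60 (13.3 ± 1.99 to 8.76 ± 1.10 CPM, adjusted p of 0.0196) no longer passed without Normal 3, OIR 1 or OIR 2, and without Normal 1 a second gene of the list was lower.

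Of 9 tested collagen receptor genes, 6 were higher and none lower (0 at an unadjusted p under 0.05, and 0 in DESeq2 and limma-voom), with a median log2 change of 0.97. The collagen uptake receptor gene Mrc2 was 6.55-fold higher (3.802 ± 0.548 to 25.0 ± 2.05 CPM, SD, n = 3). Itga1 and Itgb1, which encode the integrin that binds type IV collagen, were 3.54-fold (12.9 ± 0.946 to 45.7 ± 1.64 CPM) and 2.13-fold higher (97.7 ± 5.95 to 207.9 ± 12.2 CPM). Their edgeR adjusted p lay between 1.02e-06 and 5.42e-06.

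Among 16 other components of basement membranes, 10 were higher and none lower (0 at an unadjusted p under 0.05, and 0 in DESeq2 and limma-voom), with a median log2 change of 0.70. The laminin chain gene Lama4, of vessel basement membranes, was 4.01-fold higher (16.1 ± 1.24 to 64.7 ± 5.52 CPM, SD, n = 3, edgeR adjusted p of 6.28e-07). Hspg2, the gene of perlecan, was 4.16-fold higher (35.7 ± 5.26 to 148 ± 24.9 CPM), and Nid1, the gene of nidogen that links laminin to type IV collagen, 4.33-fold higher (31.7 ± 8.84 to 138 ± 25.0 CPM). Of 7 tested small proteoglycans that bind collagen fibrils, 2 were higher and 1 lower. Bgn, the gene of biglycan, was 5.28-fold higher (12.9 ± 0.902 to 68.0 ± 13.5 CPM) and Aspn, the gene of asporin, 3.20-fold (2.17 ± 1.07 to 6.97 ± 1.62 CPM). Optc, the gene of the vitreous proteoglycan opticin, which ciliary epithelium secretes and which is also among the pigment and ciliary markers, was lower by a log2 change of −0.99 (105.4 ± 25.3 to 53.2 ± 0.862 CPM, edgeR adjusted p of 0.000737). Kera was at 0 in all libraries.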

How the data were processed

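Per the labels' protocols, TRIzol was used to extract RNA and the NEBNext Ultra RNA kit to make libraries. The deposited values are raw read counts by gene in 6 libraries, beside gene lengths in bases. Per the submitters' processing notes, the build was mm10, and the tools named are the aligner HISAT2 2.0.5 and the counter featureCounts 1.5.0-p3, besides CASAVA 1.8, fastp and DESeq2 1.20.0. Neither annotation release nor strand setting nor read filters are stated in the sources used here. Columns were matched to samples by group, day and number in their names, and columns without OIR in the name were taken as normal.

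Genes were tested by quasi-likelihood in edgeR 4.0.16 under R 4.3.3, with TMM scaling and filterByExpr (minimum count 10, total 15) on all 6 libraries, with no covariate, Benjamini-Hochberg adjustment over 17108 genes and a threshold of 0.05. Genes left out held 0.164% of counts. Standard errors are the log2 change over the square root of F. CPM, RPKM (by deposited gene length) and ratios were computed here. The fits were checked on simulated counts. Alternatives were DESeq2 1.42.0, limma-voom (limma 3.58.1), median-of-ratios factors, library totals, 2 other filters, sex, a replicate block, a threshold of 0.01 and leaving out each library. With no filter on low counts, edgeR p-values were far smaller at nearly the same log2 changes, so a pass there alone is no support.

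Every pair of libraries in a group differed beyond sampling noise (chi-square over its degrees of freedom: 7.20 to 23.1). Without strand, reads from overlapping genes cannot be told apart: 13 members share exon bases with another gene in GENCODE vM21, at most 6.07% of a member's exon bases. All 44 members have the GENCODE vM21 position. Sequences are from RefSeq (GRCm38.p6). The members and lists were chosen with earlier results of these data known. Values are given for every type IV chain, every member that passed with a mean of at least 1 CPM, the most abundant member of each class, and up to 3 genes of each list with the smallest adjusted p.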

Additional observations from a re-analysis of the deposited data

How the results depend on the processing

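Leaving out each library in turn gave 15 to 18 higher and 1 to 3 lower collagen genes. By class, 6 to 7 fibrillar, 2 to 3 basement membrane, 3 microfibrillar and 4 to 6 other collagens were higher. It gave 10 to 13 higher genes of folding and secretion, 7 to 8 higher and 0 to 2 lower of processing and cross-linking, 5 to 6 higher receptors, 9 to 10 higher basement membrane partners, and 2 higher and 1 lower proteoglycans. The log2 difference was then 1.06 to 1.17 for summed collagen, 0.39 to 0.45 for Col4a1 to Col4a2 and 2.34 to 2.65 for Col1a1 to Col1a2, and 29.5 to 33.2 points for the share of Col4a1 and Col4a2. One collagen gene was lower without OIR 1, where Col8a1 and Col9a3 lost the call. At an adjusted p under 0.01, 1 collagen gene and 0 processing genes were lower. Summed collagen without Col4a1 and Col4a2 had a log2 difference of 0.40 (exact permutation p = 0.1). Over all alternative fits the sign changed in 14 combinations of a gene and a fit, all for members that did not pass. The log2 changes of these members over the left-out libraries were those of Col4a3 (−0.17 to 0.59), Col4a4 (−0.18 to 0.61), Col11a1 (−0.35 to 0.054), Col11a2 (−0.044 to 0.22), Col24a1 (−0.21 to 0.46), Col22a1 (−0.83 to 0.028), Col26a1 (−0.21 to 0.018), Col20a1 (−0.064 to 0.16), Col25a1 (−0.14 to 0.024) and Col28a1 (−0.41 to 0.41). Col4a3 and Col4a4 turned to −0.17 and −0.18 without OIR 3. The cause was not tested. With the replicate number as a block, 17 collagen genes were higher and 3 lower. Col18a1 (adjusted p of 0.011) and Col9a1 then passed and Col17a1 and Col8a1 did not. Normal and OIR libraries with the same number did not deviate together (r of 0.06, −0.16 and 0.07), so they share only a number. Depth limits Col6a5 and Col6a6, which had too few counts to test, and Col10a1, Col13a1, Col14a1, Col24a1 and Col28a1, near 1 CPM.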
